A study of Mus musculus with 10 samples.

Results

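T cells without Cd8 in the mouse kidney were taken from 2 single-cell tables as barcodes in which at least 2 of the T-cell receptor genes Cd3d, Cd3e, Cd3g, Trac and Trbc2 had at least 1 UMI (unique molecular identifier, a counted transcript molecule), in which the summed UMIs of Cd8a and Cd8b1 were 0, and in which those of the B-cell genes Cd79a and Ms4a1 were 0. The rule found 221 of 4376 barcodes, of which 217 of 3063 lay in the injured kidney and 4 of 1313 in the uninjured kidney. The group holds Cd4 T cells, other T cells that lack Cd8, and Cd8 T cells in which no Cd8 transcript was captured. The cells were chosen by their measured UMIs of these 9 genes, so the levels of the 5 gate genes, of Cd8 and of the B-cell genes are given as descriptions only.

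T cells recognise antigen through a receptor of paired variable chains, and the CD3 chains carry its signal into the cell. Helper T cells use CD4 as co-receptor for antigen shown on MHC class II and act on other cells through costimulatory ligands and cytokines, regulatory T cells under the factor Foxp3 restrain immune responses, and gamma-delta T cells carry a different receptor. After ischaemic kidney injury T cells enter the tissue, and both damaging and restraining roles have been described for them in mice.

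Both single-cell libraries came from C57/BL6 mice of 8 weeks, and there was 1 library per condition. The injured kidney was taken 2 weeks after 15 min of ligation of the renal artery on that side. Cells were released by digestion on ice and sorted as live by DAPI before droplet capture. The bulk libraries used here came from 3 arms of mice, each with the injured kidney and the contralateral kidney that was not ligated: C57/BL6 mice given tamoxifen (wild-type tamoxifen arm), Pax8creERT2;Ihhfl/fl mice given tamoxifen (Ihh-deleted arm) and Pax8creERT2;Ihhfl/fl mice given no tamoxifen (floxed vehicle arm). These mice too were 8 weeks old, with 15 min of ligation and harvest after 2 weeks. Pax8 drives the tamoxifen-dependent Cre in renal tubular epithelium, so the deletion was aimed at tubule cells and not at T cells. Each of these 6 groups had 4 libraries. The labels do not say that the libraries of a group came from separate animals, so p-values cover the spread between these libraries.

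The 217 cells of the injured kidney were shallow, with a median of 1342 UMIs (range 1030 to 6935) and 752 genes per cell, close to the 1332 UMIs of the 116 T cells with Cd8 and below the 1772 of the 370 B cells and the 2025 of the 672 barcodes in which proximal tubule genes took over 5% of the UMIs. Mitochondrial transcripts passed 20% of UMIs in 13 of the 217, and 22 held at least 3 UMIs of another lineage's markers or at least 2% proximal tubule UMIs. A doublet caller (Scrublet) marked 51 injured barcodes (1.67%), 11 of them among the 217, and none were removed. The 2 libraries shared 8 barcode sequences, 1 of them a T cell without Cd8. Transcripts that these cells should lack were counted in them: Igkc, an antibody light chain, had a UMI in 57.1% of them, Ighm, an antibody heavy chain, in 49.3%, and Gpx3, a proximal tubule gene, in 33.2%. Shares in proximal-gene barcodes, which should lack T-cell genes, are given below for comparison.

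T cells without Cd8 made up 7.08% of injured barcodes (exact 95% binomial interval 6.20 to 8.05) and 0.305% of uninjured barcodes (0.0831 to 0.778). These intervals and all others from the single-cell tables cover counting error only, and with 1 library per condition no test of the difference was possible. The proximal-gene barcodes took 21.9% of the injured and 63.4% of the uninjured library, so the shares of all other cells also follow how many tubule cells each library held.

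Within the gate, 40 cells had all 5 receptor genes, 82 had 4, 63 had 3 and 32 had 2. Cd3g was found in 90.8% of the 217, Trbc2 in 78.8%, Trac in 75.6%, Cd3d in 74.7% and Cd3e in 40.1%. The 32 cells just inside the threshold still carried T-cell genes outside the rule: Lck, the kinase that starts receptor signalling, had a UMI in 68.8% of them, against 76.2% of the 185 cells with 3 or more gate genes and 10.7% of the 122 barcodes with 1 gate gene. Ms4a4b, a membrane protein of T cells, was found in 71.9%, 66.0% and 10.7% of these 3 sets. The cells just inside were richer in Nkg7, a cytotoxic granule protein (59.4% against 32.4% of the cells with 3 or more), and poorer in the costimulatory receptor Tnfrsf4 (6.25% against 31.9%). Barcodes just outside had a higher median UMI count (2057) and 11.0% mitochondrial UMIs in the median.

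Receptor signalling genes that the rule did not use marked the cells as T cells. Of the 18 genes of that list, all were detected, and 99.1% of the cells had a UMI of at least 1. Lck was found in 75.1% (B cells 6.76%, proximal-gene barcodes 1.19%), Lat, the adaptor downstream of it, in 55.8%, and Bcl11b, a factor of T-cell identity, in 47.0%. Ms4a4b was found in 66.8% (60.1 to 73.1), against 5.41% of B cells and 1.64% of proximal-gene barcodes. Trbc1 and Trbc2 are near-identical constant chains, so reads may be split between them uncertainly. Set against B cells, Lat stood 203-fold higher in CPM (a gene's UMIs scaled to 1e6 summed UMIs of the group), and Il7r, the interleukin 7 receptor chain that keeps resting T cells alive, at least 135-fold higher, as B cells had no UMI of it and the bound uses 3 UMIs over the group. Of 6057 genes with at least 20 UMIs over both groups, 22.1% were at least 2-fold higher and 7.18% at least 2-fold lower.

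Cd4 itself had a UMI in 58 of the 217 cells (26.7%), with 68 UMIs in all and no more than 2 in a cell. Transcripts of genes of T-cell help and costimulation were found in shares of the same order. Izumo1r, the folate receptor 4 of regulatory and helper T cells, was found in 69 cells (31.8%, 25.7 to 38.4), Tnfrsf4, the costimulatory receptor OX40, in 61 (28.1%, 22.2 to 34.6), and Tnfsf8, the CD30 ligand, in 57 (26.3%, 20.5 to 32.7). Icos, a costimulatory receptor, was found in 23.96%, and Cd40lg, the ligand through which helper T cells activate B cells and macrophages, in 30 cells (13.8%, 9.53 to 19.1). In proximal-gene barcodes, with more UMIs per barcode, Cd4 was found in 0.446%, Tnfrsf4 and Izumo1r were each found in 0.298% and Tnfsf8, Icos and Cd40lg in 0 of 672, which allows a share of up to 0.446%. With every cell thinned to 1000 UMIs the shares were 19.4% for Cd4, 23.0% for Izumo1r and 20.3% for Tnfrsf4. At least 1 of Cd40lg, Tnfrsf4, Izumo1r, Tnfsf8 and Icos was present in 144 cells (66.4%), of which 47 also held Cd4.

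**Figure D1:**
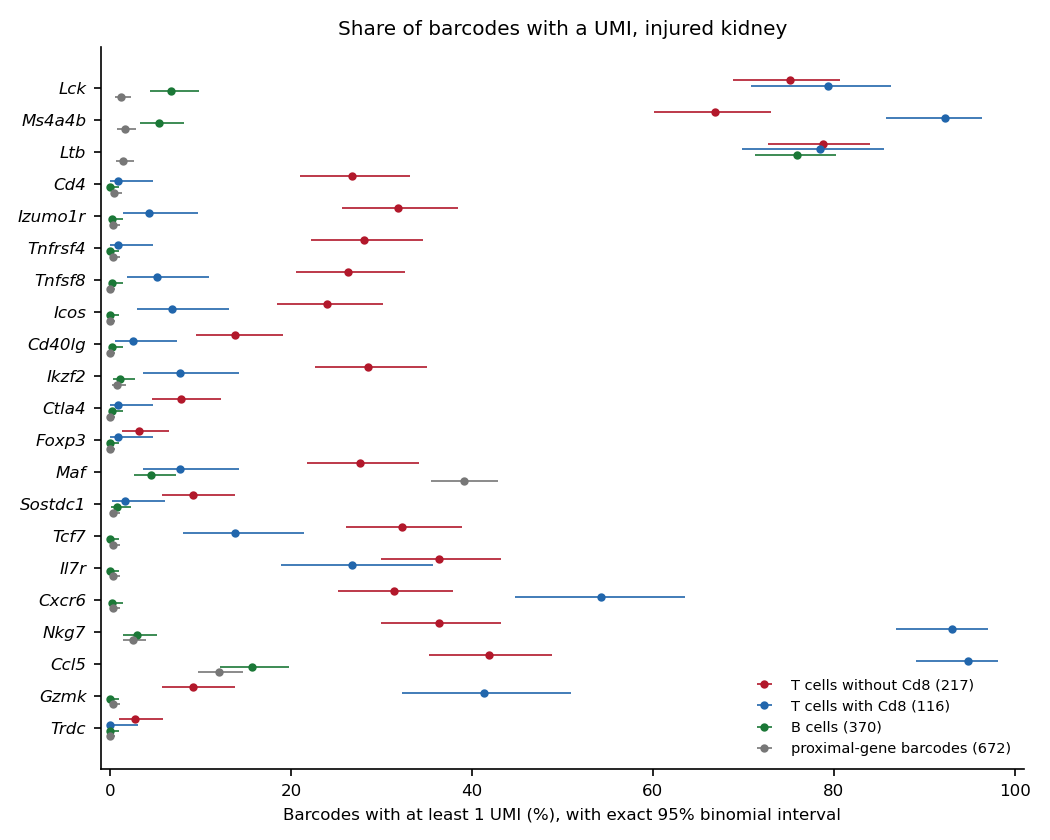
Share of barcodes of the injured kidney with at least 1 UMI (horizontal axis, percent; points with exact 95% binomial intervals) for 21 genes in T cells without Cd8, T cells with Cd8, B cells and proximal-gene barcodes. Cd4, Izumo1r, Tnfrsf4 and Tnfsf8 lie between 26.3% and 31.8% in T cells without Cd8 and at 5.17% or less in T cells with Cd8, while Nkg7 and Ccl5 lie at 93.1% and 94.8% in T cells with Cd8 and at 36.4% and 41.9% in those without.

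Beside the T cells with Cd8 of the same library, helper genes were among those with the highest ratios. Of 3875 genes with at least 20 UMIs over both groups, 322 (8.31%) were at least 2-fold higher and 134 (3.46%) at least 2-fold lower in CPM, with no test since both groups came from 1 library. Tnfrsf4 had 123 UMIs against 1, a 66.1-fold higher CPM with a counting interval of 11.7 to 2633. Izumo1r was 13.2-fold higher (5.52 to 41.5), Tnfsf8 9.14-fold (4.30 to 23.2) and Cd40lg 7.71-fold (2.47 to 38.8). The minimum is summed over both groups, so a gene can reach it through the group where it is high, and counts over lists are not given. Among regulatory genes the ratio was 10.2-fold (1.62 to 424.5; 19 UMIs against 1) for Ctla4, an inhibitory receptor, while Capg, an actin-capping protein, was at 5.96-fold, Tnfrsf9, the receptor 4-1BB, at 5.91-fold, Ikzf2, the factor Helios, at 3.82-fold, and Tnfrsf18, the receptor GITR, at 1.34-fold. Tcf7, a factor of naive and memory T cells, was 2.75-fold higher, and Maf, a factor of follicular and regulatory cells, 4.11-fold. Gpm6b, a membrane proteolipid protein, had 50 UMIs in 35 cells and none in the T cells with Cd8, at least 8.96-fold higher. Others of the 12 highest ratios rested on single UMIs in the T cells with Cd8, as Ctla4 did: Spp2 (10.8-fold), Mrpl3, a mitochondrial ribosomal protein (10.2-fold), and Tspan8, a tetraspanin (10.2-fold, in 6 cells).

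Several cytotoxic genes and effector chemokines had low ratios. Ccl5, a chemokine of effector T cells, stood at 3649 CPM against 27109, a ratio of 0.135 (0.127 to 0.143), and Nkg7 at 824 CPM against 4245, a ratio of 0.194. Ratios were lower still for Ccl4 (0.0511) and Ccl3 (0.0747), both chemokines that attract monocytes and T cells, and for Gzmb, granzyme B (0.104), and were 0.181 for Gzmk, granzyme K, and 0.157 for Eomes, a factor of cytotoxic T cells. Among the 12 lowest were also Nr4a2, a nuclear receptor induced by receptor signals (0.0566), and Tcrg-C2, a gamma receptor chain (0.0949). S100g (0.0896) and Plat (0.162) lay there as well, each with UMIs in 5 or fewer cells of either group. Of the type 1 list, Ifng was at a ratio of 0.403, Stat4, a signalling factor of type 1 cells, at 1.34 and Il18r1, the interleukin 18 receptor, at 2.58 (0.965 to 8.66). Even so, 91 of the 217 cells (41.9%) had a UMI of Ccl5 and 79 (36.4%) one of Nkg7, against 12.1% and 2.53% of proximal-gene barcodes. Genes within 2-fold included Lck at a ratio of 0.893, Lat at 1.01, Ltb, lymphotoxin beta, at 1.25, and Il7r at 1.45. Cxcr6, a chemokine receptor of tissue T cells, was at 0.534 and was found in 31.3% of T cells without Cd8 and 54.3% of T cells with Cd8.

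**Figure D2:**
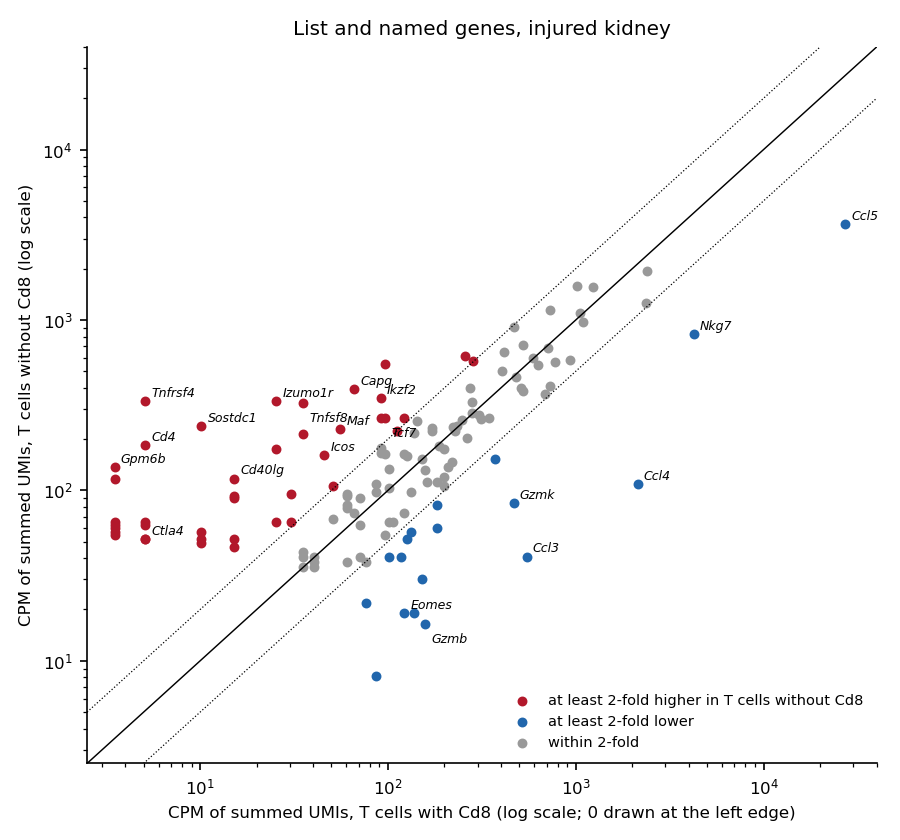
CPM of summed UMIs in T cells with Cd8 (horizontal) and T cells without Cd8 (vertical), both on log scales, for the genes of the fixed lists and the leading genes with at least 20 UMIs; the solid line marks equal CPM and the dotted lines a 2-fold ratio. Tnfrsf4, Cd4, Izumo1r and Tnfsf8 lie above the upper dotted line and Ccl5, Nkg7 and Ccl4 below the lower dotted line.

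The starts of 3 genes on which this contrast turns are shown as the sequence from 250 bases before to 50 bases after the RefSeq transcription start (GRCm38.p6), because they sit at its opposite ends: Tnfrsf4 and Izumo1r high in T cells without Cd8, Nkg7 high in T cells with Cd8. Capitals mark matches to 4 motifs on either strand: TGGAAA, the core bound by NFAT factors, TGTGGT, bound by RUNX factors, AGGTGT, bound by T-box factors, and TGANTCA, bound by AP-1. Tnfrsf4 lies at chr4:156013445-156013744 on the plus strand, Izumo1r at chr9:14903718-14904017 on the minus strand and Nkg7 at chr7:43436888-43437187 on the plus strand.
Tnfrsf4: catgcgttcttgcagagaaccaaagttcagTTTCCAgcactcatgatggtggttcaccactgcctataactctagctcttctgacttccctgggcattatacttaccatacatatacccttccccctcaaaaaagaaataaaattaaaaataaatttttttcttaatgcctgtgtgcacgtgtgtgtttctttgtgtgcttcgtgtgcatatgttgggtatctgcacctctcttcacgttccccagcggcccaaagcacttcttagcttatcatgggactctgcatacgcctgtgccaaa
Izumo1r: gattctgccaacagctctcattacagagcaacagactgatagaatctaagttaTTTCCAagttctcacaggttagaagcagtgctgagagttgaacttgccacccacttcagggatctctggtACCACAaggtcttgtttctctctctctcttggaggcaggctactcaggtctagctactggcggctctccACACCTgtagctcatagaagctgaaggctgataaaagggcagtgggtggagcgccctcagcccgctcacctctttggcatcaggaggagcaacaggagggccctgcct
Nkg7: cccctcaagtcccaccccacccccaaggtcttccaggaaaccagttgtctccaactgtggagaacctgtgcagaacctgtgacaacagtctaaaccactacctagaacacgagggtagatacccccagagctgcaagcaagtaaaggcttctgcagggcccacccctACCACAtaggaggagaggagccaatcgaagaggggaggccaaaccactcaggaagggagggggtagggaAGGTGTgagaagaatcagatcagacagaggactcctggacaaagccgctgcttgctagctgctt
The Tnfrsf4 window held 1 match to the NFAT core, the Izumo1r window 1 each to the NFAT, RUNX and T-box letters, and the Nkg7 window 1 each to the RUNX and T-box letters. Of 32851 windows of the same length, 21.4% held the NFAT core, 16.8% the RUNX letters, 13.7% the T-box letters and 7.81% the AP-1 letters, and the motifs do not overlap in these 3 windows. Windows were also scored but not shown for Ctla4, Tnfsf8 and Gzmb. That of Ctla4 held 1 match each to the NFAT and T-box letters, and that of Tnfsf8 held 0 to any of the 4 motifs. The Gzmb window held 2 matches to the RUNX letters and 1 to the AP-1 letters. The matches describe these letters and are not binding sites.

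Split by what was detected in each cell, 32 cells (14.7%) held Cd4 and neither Ccl5 nor Nkg7, 26 (11.98%) held Cd4 with Ccl5 or Nkg7, 84 (38.7%) held Ccl5 or Nkg7 without Cd4, and 75 (34.6%) held none of the 3. These counts follow depth, as an undetected gene may be expressed: the 58 cells with Cd4 had a median of 1497 UMIs and the 159 without it 1318. Tnfrsf4 was found in 41.4% of cells with Cd4 and 23.3% of cells without, and Izumo1r in 43.1% and 27.7%. Cxcr3, a receptor for interferon-induced chemokines, was found in 25 of the 58 and 38 of the 159. Cd40lg was found in 7 of the 58 and 23 of the 159. The 5 genes whose shares differed most between cells with and without Cd4 were Map1lc3b, an autophagy protein (60.3% and 34.0%), Pkp3, plakophilin 3 (46.6% and 20.8%), Emb, embigin (44.8% and 20.1%), Pkm, pyruvate kinase (72.4% and 48.4%), and Calr, calreticulin (58.6% and 35.2%). Cells with Nkg7 held Ccl5 in 60 of 79, against 31 of 138 cells without Nkg7.

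The regulatory list had a UMI in 70.0% of the cells, with Capg in 33.6% and Ikzf2 in 28.6%, but its defining factor Foxp3 was rare. Foxp3 had a UMI in 7 of the 217 (3.23%, 1.31 to 6.53), of which 7 also held Ikzf2, 5 Cd4, 5 Tnfrsf4, 5 Izumo1r, 5 Maf and 4 Icos, and 0 held Cd40lg. Ctla4 was found in 17 cells, of which 1 also held Foxp3, and Il2ra, the interleukin 2 receptor alpha chain, in 1.38%. None of the 672 proximal-gene barcodes held Foxp3, Ctla4, Il2ra, Pdcd1, Tox or Il21. Il10, an anti-inflammatory cytokine, had no UMI, which allows a share of up to 1.38% of cells with a UMI (3 counts of 217). Pdcd1, the inhibitory receptor PD-1, was found in 13.4% and Tox, a factor of chronically stimulated T cells, in 16.1%, both below their shares in T cells with Cd8 (17.2% and 25.0%). Of the genes used to define follicular helper cells, Il21 was found in 7 cells, Cxcr5 in 3 and Bcl6 in 2 (0.922%, below the 1.93% of proximal-gene barcodes).

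A small set of cells held Sostdc1, a secreted BMP and Wnt antagonist. It had 87 UMIs in 20 cells against 2 UMIs in 2 T cells with Cd8, a 23.4-fold higher CPM, and 10 of the 20 had at least 3 UMIs. Of the 20, 11 held Pdcd1 against 18 of the 197 without Sostdc1 (55.0% and 9.14%), 13 held Tnfsf8 against 44, and 4 held Ccl5 against 87. Cxcr6 was found in 0 of the 20 and 68 of the 197. Sostdc1 is also a distal tubule gene: 168 of the 2846 other injured barcodes had a UMI of it (5.90%), and 15 of 49 barcodes with the distal tubule transporter Slc12a3 did (30.6%). Among the 20 T cells, 2 held at least 3 UMIs of the distal markers Slc12a3, Calb1 and Pvalb. The part of distal tubule RNA in the other cells was not tested.

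**Figure D3:**
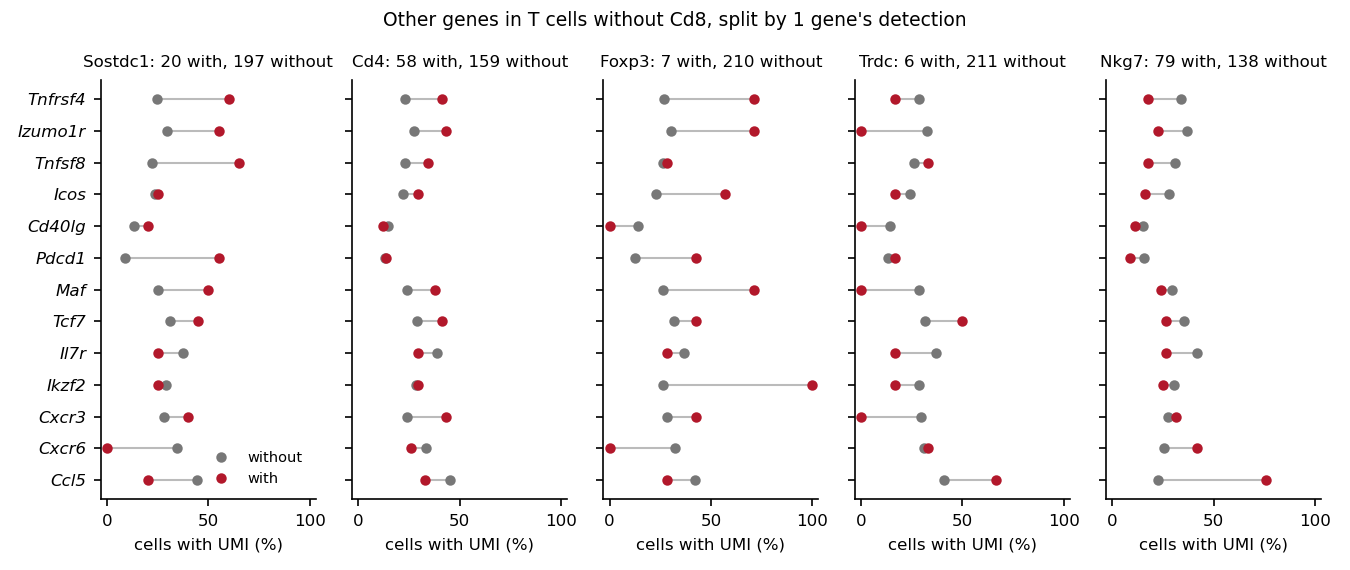
Share of T cells without Cd8 with a UMI of each of 13 genes (rows; horizontal axis in percent) among cells with (red) and without (grey) a UMI of Sostdc1, Cd4, Foxp3, Trdc or Nkg7, with the cell counts above each panel. Cells with Sostdc1 hold Pdcd1 in 55.0% and Cxcr6 in 0%, and cells with Nkg7 hold Ccl5 in 76.0%.

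Other subsets were sparse at this depth. Proximal-gene barcodes held Gata3 in 0.149% and none of Trdc, Tbx21, Ifng, Tnf, Tnfsf11 and Ccr7. Trdc, the gamma-delta receptor's constant chain, had 23 UMIs in 6 cells, and none in T cells with Cd8. Of the 6 cells, 4 held Ccl5, 4 Nkg7 and 0 Cd4 or Izumo1r. Tbx21, the master factor of type 1 helper cells, was found in 7 cells. Ifng, a cytokine of type 1 cells, was found in 13 (5.99%, against 12.9% of T cells with Cd8), and Gata3, the factor of type 2 helper cells, in 29 (13.4%). Tmem176a, listed with type 17 genes, was found in 20.7%, but in 82.4% of proximal-gene barcodes. Tnf was found in 3 cells with 4 UMIs, whereas Ltb was found in 78.8%. Tnfsf11, the ligand RANKL, was found in 12 cells (5.53%, against 0.862% of T cells with Cd8). Ccr7, a homing receptor of naive cells, was found in 5.07%, while Il7r was in 36.4% and Tcf7 in 32.3%. Cells with at least 3 UMIs of the proliferation list numbered 16 (7.37%), against 4.31% of T cells with Cd8 and 5.41% of B cells. Il17a has no row in the injured table. Of 9 macrophage markers, 9 were detected, with a summed level of 1055 CPM against 243 CPM in T cells with Cd8. C1qc, a macrophage complement chain 12.4-fold higher, rested on 3 cells, and Dcn, a fibroblast gene 12.9-fold higher, on 24 UMIs of 1 cell.

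Set against all other injured barcodes, 1670 of 11187 genes (14.9%) were at least 2-fold higher and 2356 (21.1%) at least 2-fold lower. Beside the helper genes above, the 20 highest ratios included Trdc at at least 155-fold, Izumo1r at 131-fold (80.1 to 224), Tnfsf11 at 106-fold, Nrn1, a neuronal-type surface protein, at 90.7-fold, Ctla4 at 76.6-fold, Il1r2, a decoy receptor for interleukin 1, at 55.4-fold, Tnfrsf25, the death receptor 3, at 52.9-fold, Cd5, an inhibitor of receptor signalling, at 48.2-fold, and Penk, the precursor of enkephalin, at 40.3-fold. Penk rested on 24 UMIs in 8 cells and Il1r2 on 22 UMIs in 12.

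The uninjured kidney gave only 4 cells, with totals of 1430, 1989, 1609 and 1029 UMIs. Of their 64 UMIs of Ccl5, 64 lay in the cell with 1609, and none of the 4 held Ccr7. Over 1541 genes, 60 (3.89%) were at least 2-fold higher in the injured cells and 609 (39.5%) at least 2-fold lower, counts that rest on 6057 UMIs in the uninjured group against 366713. Cd4, Tnfrsf4, Izumo1r, Tnfsf8, Cd40lg and Foxp3 have no row in the uninjured table used here, so their levels were not compared between the 2 kidneys.

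In the bulk libraries the targeted gene was examined first. Ihh had 4.58, 6.09, 5.09 and 4.86 CPM in the injured kidneys of the Ihh-deleted arm, 9.85, 5.98, 9.79 and 11.8 CPM in wild-type kidneys, with the floxed alleles but no tamoxifen, 9.31, 11.2, 15.4 and 6.88 CPM. The Ihh-deleted values lay at the low end but overlapped the others through the 5.98 of a wild-type library. The log2 difference against the mean of both intact arms was -0.73, which did not pass edgeR's quasi-likelihood test (Benjamini-Hochberg adjusted p = 0.0930), so the Ihh-deleted arm is named from its label throughout. In all T-cell results in whole kidney, fewer T cells and less RNA per cell cannot be told apart.

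T-cell genes rose in injured kidneys against contralateral kidneys. Of the 117 genes of the T-cell lists, 106 were tested, of which 92 rose and 7 fell, with a median log2 difference of 2.76. Over all 16989 genes tested, 6716 (39.5%) rose and 6038 (35.5%) fell with a median of 0.05. Cd4 stood at 2.84, 4.16, 2.59 and 20.9 CPM in the Ihh-deleted injured kidneys, at 15.2, 45.3, 16.96 and 10.4 CPM in the wild-type ones and at 25.3, 7.65, 5.54 and 25.4 CPM in the vehicle ones. The contralateral kidneys held 0.454 to 1.34 CPM, below each of the 12 injured libraries. The mean was 15.2 ± 12.6 CPM (SD, n = 12) against 0.876 ± 0.313 (SD, n = 12), and the log2 difference was 3.61 (SE 0.39, adjusted p = 7.20e-08 by edgeR).

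The receptor genes moved with it, beside the 39.5% of all genes tested that rose. All 5 gate genes rose, with Cd3e at a log2 difference of 3.37 (SE 0.39, adjusted p = 1.96e-07 by edgeR), Trbc2 at 3.21, Cd3g at 3.14, Cd3d at 3.02 and Trac at 2.45, and 17 of 18 receptor signalling genes rose. Helper genes that marked the cells without Cd8 rose as well: Tnfsf8 by a log2 difference of 4.75 (SE 0.44, adjusted p = 1.50e-08 by edgeR), Icos by 3.86, Cd40lg by 3.72 and Tnfrsf4 by 2.58. Tnfsf8 had 0.763 to 28.4 CPM in the injured and 0.128 to 0.556 CPM in the contralateral libraries, which did not overlap. Izumo1r was at 0 in 7 of 12 contralateral libraries, reached 0.0855 CPM in the others and 0.0825 to 6.19 CPM in the injured, and its fitted log2 difference of 5.52 depends on the prior count. Cd8a rose by 1.66, Nkg7 by 2.39 and Ccl5 by 2.67, but no test compared these rises with that of Cd4.

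Most regulatory, inhibitory and cytokine genes rose too, where 39.5% of all genes tested rose and 35.5% fell. Of 14 regulatory genes 13 rose, with Foxp3 at a log2 difference of 2.86 (SE 0.38, adjusted p = 1.07e-06 by edgeR) and Ctla4 at 5.87 (SE 0.64, adjusted p = 9.03e-08), and 1, Itgb8, an integrin chain that releases active TGF-beta, fell by 0.54. Pdcd1 was at 5.17, Il21 at 6.19 (SE 1.20) and Il10 at 5.74, and the last 2 were at or near 0 in the contralateral libraries. All 10 cytokine and ligand genes tested rose, among them Lta, lymphotoxin alpha, at 4.54, Tnfsf11 at 4.45 and Tnf at 3.18, genes that other immune cells also express. Of the 7 type 17 genes tested, 3 rose and 3 fell, not far from those shares of all genes. Tmem176a and Tmem176b were among those that fell. Maf fell by 1.37 and Id2, a factor of innate lymphoid and other cells, by 1.08; Maf had a UMI in 39.1% of proximal-gene barcodes. Gata3 rose by 0.33 (adjusted p = 0.0417 by edgeR), a call lost in 16 of 24 fits that left out 1 library. Sostdc1, which marked the small subset but is also a distal tubule gene, fell by 0.66 with 0 of 12 injured libraries above all contralateral ones. All 3 distal tubule markers fell in the same libraries, and their part in the Sostdc1 value was not tested. All 7 B-cell and 9 macrophage markers rose and all 10 proximal tubule markers fell in the same libraries; their part in the T-cell values was not tested.

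**Figure D4:**
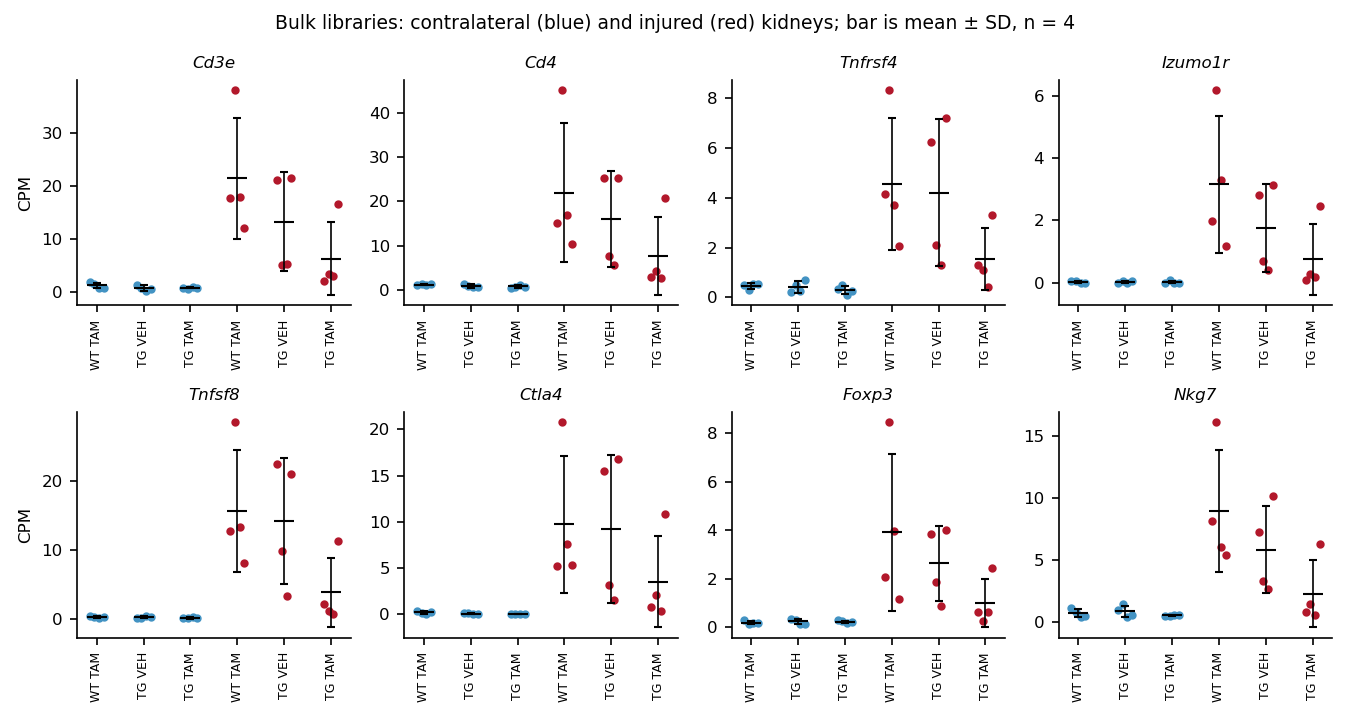
CPM in each of 4 libraries per group (points) with mean ± SD for 8 genes in contralateral (blue) and injured (red) kidneys of the wild-type tamoxifen, floxed vehicle and Ihh-deleted arms (WT TAM, TG VEH, TG TAM). For Cd4 each injured library lies above every contralateral one, and in the injured Ihh-deleted group 1 library, at 20.9 CPM, stands apart from 3 at 4.16 or below.

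The rise was present within each arm. In the wild-type tamoxifen arm 90 of the 106 genes rose (32.8% of all genes did) and 7 fell, in the floxed vehicle arm 89 rose (33.7%) and 6 fell, and in the Ihh-deleted arm 72 rose (19.7%) and 4 fell, with median log2 differences of 3.25, 2.84 and 1.98. The test of the difference between the Ihh-deleted arm and the mean of the intact arms called 6 of the 106 genes, where 1437 (8.46%) of all genes were higher and 982 (5.78%) lower. In the Ihh-deleted arm the injury difference was smaller for Ccr2, a chemokine receptor that monocytes also carry (by -1.86, adjusted p = 0.0295 by edgeR), Itgae, the integrin CD103 (-1.73), and Il1r1, the interleukin 1 receptor (-0.79). It was greater for Crem, a cyclic AMP-responsive repressor (1.17, adjusted p = 0.00842 by edgeR), and Itgb8 (0.78). Cd4 (-0.67, SE 0.79) and the 5 gate genes (for Cd3e -0.93, SE 0.80) did not pass this test. With an SE of this size, that does not show an equal rise across the arms. The test was not refitted with single libraries left out. It shares its injured libraries with the other bulk comparisons.

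Injured kidneys of the Ihh-deleted arm were then set against the 8 injured kidneys of the intact arms. Of the 106 genes, 36 were lower and 5 higher, with a median log2 difference of -1.12, where 17.5% of all genes were lower and 20.2% higher with a median of -0.01. The 36 included 10 of 15 activation and residency genes, with Ccr2 (-2.03) and Cxcr6 (-1.49), and 7 of 14 regulatory genes. Other lists had smaller shares, with 4 of 18 receptor signalling, 2 of 9 naive and central memory, 1 of 9 follicular and exhaustion and 4 of 10 cytokine and ligand genes lower. Foxp3 was at 0.619, 0.269, 0.636 and 2.47 CPM in the Ihh-deleted kidneys against 0.865 to 8.45 CPM in the intact ones, groups that overlap, a log2 difference of -1.47 (SE 0.53, adjusted p = 0.0349 by edgeR). Tnfsf8 was at 2.19, 1.21, 0.763 and 11.4 CPM against 3.33 to 28.4 CPM, a log2 difference of -1.76 (SE 0.57, adjusted p = 0.0210 by edgeR). The 5 that were higher included Crem (1.15), Id2 (0.49), Igfbp4 (0.73) and Itgb8 (0.96). Of the 5 gate genes 0 passed, with 4 at an unadjusted p under 0.05 and 3 called by DESeq2. Cd4 differed by -1.11 (adjusted p = 0.102 by edgeR), Cd3e by -1.22 (adjusted p = 0.0836), Izumo1r by -1.45 (adjusted p = 0.122) and Tnfrsf4 by -1.29 (adjusted p = 0.0504). Markers of other cell types also differed: all 9 macrophage and 6 stromal markers were lower, all 10 proximal tubule markers higher, and 0 of 7 B-cell markers passed (2 at an unadjusted p under 0.05).

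Leaving out any of 7 single libraries moved the count of lower T-cell genes by over 1.5 times. Summed over the 5 gate genes, the Ihh-deleted injured kidneys had 6.84, 10.2, 7.50 and 52.6 CPM, against 39.96 to 134.8 CPM in the wild-type and 14.01 to 71.9 CPM in the vehicle kidneys, so that 3 libraries lay below every intact one and library 4 among them. Without library 4, 83 of the 117 list genes, of which 106 were tested in the main fit, were lower. The log2 differences in that fit were -2.26 for Cd4 (adjusted p = 0.0018 by edgeR), -2.25 for Cd3e (adjusted p = 0.00332), -3.44 for Izumo1r and -2.36 for Foxp3. Without Ihh-deleted library 1, 2 or 3 the count of lower list genes was 16, 14 or 11. The count over all genes moved too: 2969 were lower in the main fit, 1394 without Ihh-deleted library 3 and 3724 without library 4. Without wild-type library 2, vehicle library 1 or vehicle library 4 the list count was 18, 21 or 19. Leaving out any of these 6 ended the calls of Foxp3, Ms4a4b and Nkg7, and leaving out Ihh-deleted library 1, 2 or 3 ended that of Tnfsf8. Library 4 also had the highest macrophage sum of its group (1250 CPM, against 303 to 643 in the others) and B-cell sum (6564 CPM, against 23.7 to 639), and the lowest proximal tubule sum (20751 CPM, against 25982 to 42192); their part in the result was not tested.

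**Figure D5:**
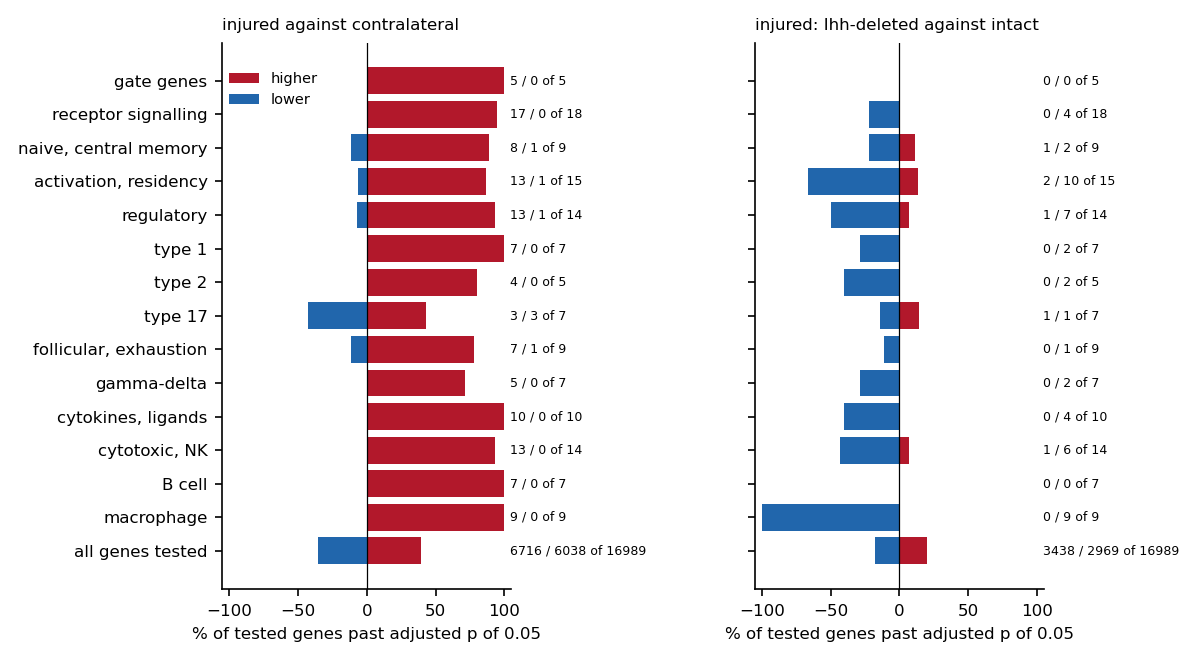
Percent of tested genes of each list that were higher (red, right) or lower (blue, left) at an adjusted p of 0.05, for injured against contralateral kidneys (left panel) and for injured Ihh-deleted against injured intact kidneys (right panel); numbers give genes higher and lower of those tested. All 5 gate genes are higher on the left and none passes on the right, where all 9 macrophage genes are lower.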

How the data were processed

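The single-cell libraries were processed with Cell Ranger and the bulk libraries with STAR and Salmon, with GRCm38/mm10 named as the build, per the submitters' processing notes. The deposited single-cell tables hold raw UMI counts per gene and barcode. The deposited bulk table holds expected counts per transcript, with 83.2% of positive values not whole; they were summed to 33714 genes with GENCODE M21 names and rounded. Of its 105833 transcripts, 552 had no match there and were left out, with 0.185% of the counts. Bulk depth for the 24 libraries fitted was 18.2 to 38.0 in units of 1e6 counts.

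Bulk tests used edgeR 4.0.16 (R 4.3.3): TMM factors, filterByExpr, 1 coefficient for each of 6 groups, quasi-likelihood tests and Benjamini-Hochberg adjustment over the 16989 genes kept, with calls under 0.05. The SE is the log2 difference over the root of its F. Bulk CPM are counts over library totals. DESeq2 1.42.0 was an alternative. Nephrectomy and uninjured bulk libraries entered no main comparison. Single-cell CPM ratios were called at 2-fold or more with at least 20 UMIs over both groups, with exact conditional Poisson intervals at 95%, and a group at 0 was set to 3 UMIs over the group. Python 3.11.15, scipy 1.17.1, scanpy 1.11.5 and matplotlib 3.10.9 were used. The tests were tried on simulated data. Promoter windows from RefSeq (GRCm38.p6) were found for 6 of the 11 genes looked up; Cd4, Cd40lg, Icos, Ccl5 and Ccl4 are named only.

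The cells, gene lists and tests were chosen with earlier results of these data known. Genes named in the text were drawn from the gate genes, subset factors and the 12 genes per direction with the largest single-cell ratios (a selection where they rest on few UMIs). They were also drawn from the 20 with the highest ratio against all other barcodes, the leading members of each list and the 5 genes that differ most with Cd4. Not every gene of these sets is named. Few ratios are given against B cells, and no single gene's ratio is given for injured against uninjured cells. Other list members were named after their values were seen. Some list genes are not reported here.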

Additional observations from a re-analysis of the deposited data

Results flagged for a closer look

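In the injured kidneys of the Ihh-deleted arm, library 4 stood apart from the other 3 for 8 genes of T cells: Cd3e at 16.6 CPM, Cd4 at 20.86 CPM, Foxp3 at 2.468 CPM, Izumo1r at 2.468 CPM, Tnfsf8 at 11.37 CPM, Ctla4 at 10.81 CPM, Il21 at 1.421 CPM and Nkg7 at 6.282 CPM. In each the gap to the next library passed Dixon's 95% critical ratio for 4 samples. Library 2 of the injured wild-type tamoxifen group was set apart for Ctla4, at 20.74 CPM. In contralateral kidneys of the Ihh-deleted arm the distant values were 0.08554 CPM for Izumo1r, 0.04781 CPM for Cd40lg, 0.04432 CPM for Il21 and a low 0.0 CPM for Ctla4. The contralateral wild-type group had 1 library at 0.0404 CPM for Il21, and the contralateral vehicle group 1 at 0.3832 CPM for Pdcd1. In all, 15 of 66 groups of values were set apart, and these genes are not independent of each other. Chance sets apart about 1 in 20 where values spread normally. In the contralateral groups named for Izumo1r, Cd40lg and Il21 all libraries but 1 were at 0, which fixes the ratio at 1.0 whatever the value. For Ctla4 there the other libraries held only 0.04277 to 0.04781 CPM. The 1 in 20 does not apply to such groups near 0, so the count is not set against it.

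For 5 genes of the T-cell lists named here the log2 injury difference was itself different in the Ihh-deleted arm from that in the intact arms by edgeR's test of the interaction. It was lower for Ccr2 (-1.859, adjusted p = 0.0295), Itgae (-1.734, adjusted p = 0.0223) and Il1r1 (-0.7939, adjusted p = 0.0405), and higher for Crem (1.168, adjusted p = 0.00842) and Itgb8 (0.7805, adjusted p = 0.0440). In all, the test called 2 of the 106 list genes higher and 4 lower, beside 8.46% of all genes higher and 5.78% lower. The lists were thus not called more often than all genes.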

How the results depend on the processing

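No value changed direction under the alternatives run. The share of T cells without Cd8 in the injured kidney was 6.04% with at least 3 gate genes and 8.571% with at most 20% mitochondrial UMIs, where the uninjured share was 0.73%, 4 cells of fewer barcodes. Without barcodes holding other lineages' markers, which also shrinks the denominator, it was 18.29%, and 2.162% in the uninjured kidney. The share with Cd4 was 19.35% at 1000 UMIs per cell. With a minimum of 50 UMIs, fewer genes enter: 73 were higher and 23 lower against T cells with Cd8, 538 higher and 223 lower against B cells, and 148 lower against uninjured cells. The fit of all 32 bulk libraries takes in the nephrectomy and uninjured ones, some with a heart profile or low depth. It called 4 of the T-cell list genes lower after injury. Under that fit the comparison of the Ihh-deleted with the intact arms called 894 genes higher and 763 lower, and 1 list gene higher and 9 lower; the cause was not tested. Leaving out 1 library gave ranges in that comparison of 1866 to 4282 genes higher, 1394 to 3724 lower, 3 to 6 list genes higher and 11 to 83 lower. DESeq2 called 52 list genes lower there and added Cd3e, Trac, Trbc2, Tnfrsf4 and Tcf7; no low-count filter left 25, and RLE factors 37. A replicate block by column number gave 92 list genes higher and 7 lower after injury, and 4 higher and 46 lower in the Ihh-deleted arm. With that block Trac, Trbc2 and Tnfrsf4 were also called; the labels do not pair the numbers. Of 12 same-numbered pairs, 6 correlated over 0.1 and 6 best with their own number (range -0.28 to 0.21), a hint from the data that falls short of every pair. Depth limits the single-cell subsets: at a median of 1342 UMIs per cell, an undetected gene may be expressed.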

Other observations

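Genes induced within minutes to hours of a stimulus, the immediate early list, had a UMI in 86.2% of the T cells without Cd8, with a summed level of 2045 CPM against 1461 CPM in T cells with Cd8 and 1769 CPM in B cells of the same library. Fos, an AP-1 subunit, stood at a 3.14-fold and Junb, another, at a 2.36-fold higher CPM than in T cells with Cd8. The other genes of this list with at least 20 UMIs over both groups lay within 2-fold. A gene can reach that minimum through the group where it is high. Genes induced by interferon had a UMI in 75.1% of the cells. Of these, Ifit1, at a ratio of 0.409, and Isg15, at 0.434, were at least 2-fold lower than in T cells with Cd8. The others that reached the minimum lay within 2-fold. Both lists were counted after digestion and sorting of the tissue in 1 library, so no test was made.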
